A study of Mus musculus with 4 samples.

Results

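The genes of Polycomb repressive complex 2 (PRC2) were followed in E14 mouse embryonic stem cells after 24 h with all-trans retinoic acid. The set held 10 genes, fixed by name and not by their values: the methyltransferases Ezh2 and Ezh1, the core subunits Eed, Suz12, Rbbp4 and Rbbp7, and the accessory subunits Jarid2, Mtf2, Phf1 and Phf19. All 10 were found among the 23420 genes of the count tables, and all 10 had enough counts to enter the test, which covered 14256 genes. E14 is a wild-type line that was grown without feeder cells on gelatin in serum medium with leukaemia inhibitory factor. The 2 ATRA libraries came from cells given 1 µM all-trans retinoic acid (ATRA) for 24 h, and the 2 control libraries from cells at 0 h. The ATRA titles and the protocol gave a micromolar dose and a second label a millimolar one; the dose given here is that of the titles. The labels did not say whether the 0 h cells received the dimethyl sulfoxide vehicle. ATRA and 24 h in culture therefore cannot be told apart. A single line was studied, and nothing stated that the 2 libraries of a group came from separate cultures, so p-values reflect only how these libraries vary, and that variation may be technical.

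PRC2 places methyl groups on lysine 27 of histone H3, a mark of silenced genes. EZH2 or its paralog EZH1 carries the catalytic SET domain, which is inactive without EED and SUZ12. EED binds the finished mark and stimulates the enzyme, SUZ12 holds the assembly together, and RBBP4 and RBBP7 are histone chaperones. The Polycomb-like proteins PHF1, MTF2 and PHF19 define one form of the complex and JARID2 another, and both kinds of subunit help to bring PRC2 to CpG-rich DNA. In embryonic stem cells the complex covers the promoters of developmental regulators, and cells that lack it renew themselves but differentiate poorly.

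Counts in genes were 13337972 and 11086233 in the ATRA libraries and 31005634 and 21484812 in the controls. Levels are given as CPM, a gene's counts scaled to a common library size with TMM factors, and fold changes as log2 of ATRA over control with a standard error (SE). The 7 stem cell markers summed to 1496 and 1066 CPM in the ATRA libraries and to 3133 and 3172 CPM in the controls, and 2 of the 7, Zfp42 and Esrrb, fell uncorrected, where 0.407% of all genes did. After the correction described in the next paragraph 5 of the 7 fell, where 7.7% of all genes did. Of the other cell types' markers, 6 fibroblast genes summed to 106 and 105 CPM with ATRA against 216 and 155 CPM in the controls, 6 neuron genes to 292 and 268 against 473 and 503 CPM, and 6 extraembryonic endoderm genes to 52.2 and 78.0 against 25.2 and 25.7 CPM. All these sums are uncorrected, and 1 gene made up most of the last 2. Stmn2 gave 245 and 209 CPM with ATRA against 330 and 380 CPM, and Dab2 42.3 and 66.4 against 21.7 and 22.3 CPM. Most of the lower fibroblast sum came from Col1a1, at 40.1 and 24.1 CPM with ATRA against 141 and 91.9 CPM. Col1a2 overlapped, at 44.1 and 51.3 against 53.0 and 44.5 CPM. Uncorrected fold changes of the 6 fibroblast genes were above 0 for 3 and below 0 for 3. Uncorrected, 0 of the fibroblast and 0 of the endoderm genes were called, and of the neuron genes Dcx rose and Tubb3 fell. In the corrected fit, which gave the PRC2 calls, all 4 endoderm genes with enough counts rose, 1 fibroblast gene rose, and 1 neuron gene rose and 2 fell, where 8.56% of all genes rose. Among these, Dcx and Gata6 passed the count filter through the ATRA libraries alone. None of these markers was at 0 in all 4 libraries, only Afp was at 0 in 1 of them (control replicate 1), and their part in the results was not tested. In bulk RNA, fewer cells of a type and less RNA per cell cannot be told apart.

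The fold change of a gene followed the GC content of its transcript. Spearman's rho between them was −0.75 across 14146 genes, and the median fold change was 1.03 in the lowest GC decile against −1.72 in the highest. The 2 ATRA libraries differed from each other along the same axis: the log2 ratio of ATRA replicate 2 to replicate 1 had a median of 0.86 in the lowest decile and −1.34 in the highest, against −0.01 and −0.32 for the control pair. The tests of the PRC2 genes are therefore given without correction and after a trend on GC content was removed within each library, which took rho to −0.00 and the biological coefficient of variation to 15.4%, against 28.3% before. A treatment effect that itself follows GC content is removed with it, and the part of either in the uncorrected changes was not tested.

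Without correction, 0 of the 10 PRC2 genes passed an edgeR adjusted p of 0.05, where 1.13% of all genes did (0.723% higher and 0.407% lower). At an unadjusted p under 0.05 there were 4 (Phf1, Ezh1, Suz12 and Mtf2), against 5941 of 14256 genes (41.7%). DESeq2 called 3 of the 10, with Suz12 and Mtf2 higher and Phf1 lower, where it called 30.5% of all genes. After the correction Ezh1 and Jarid2 fell and none rose, that is 2 of 10 changed and fell, where 16.3% of all genes changed, 8.56% rose and 7.7% fell. The median fold change of the 10 genes was 0.30 uncorrected, against −0.02 for all genes tested, and −0.12 corrected, against 0.01. Uncorrected CPM did not overlap between the groups for 8 of the 10 genes, where 81.4% of all genes showed this. Corrected CPM did not overlap for 5 of 10, where 70.3% of all genes showed this.

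The calls depended on which library was left out. Each such fit took its spread from the group left with 2 libraries, so a call in it is no sign of robustness. Without ATRA replicate 1, 10 PRC2 genes were called uncorrected and 3 corrected, where 69% and 44.7% of all genes were. Without ATRA replicate 2 there were 8 and 4, where 48.9% and 33.7% of all genes were called. Without control replicate 1 there were 0 and 0 (all genes 0.874% and 0.245%), and without control replicate 2 also 0 and 0 (4.59% and 0.201%). With the replicate number as a block, 1 PRC2 gene was called uncorrected, Phf1, among 30.9% of all genes, and 1 corrected, Jarid2, among 18.5%.

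**Figure D1:**
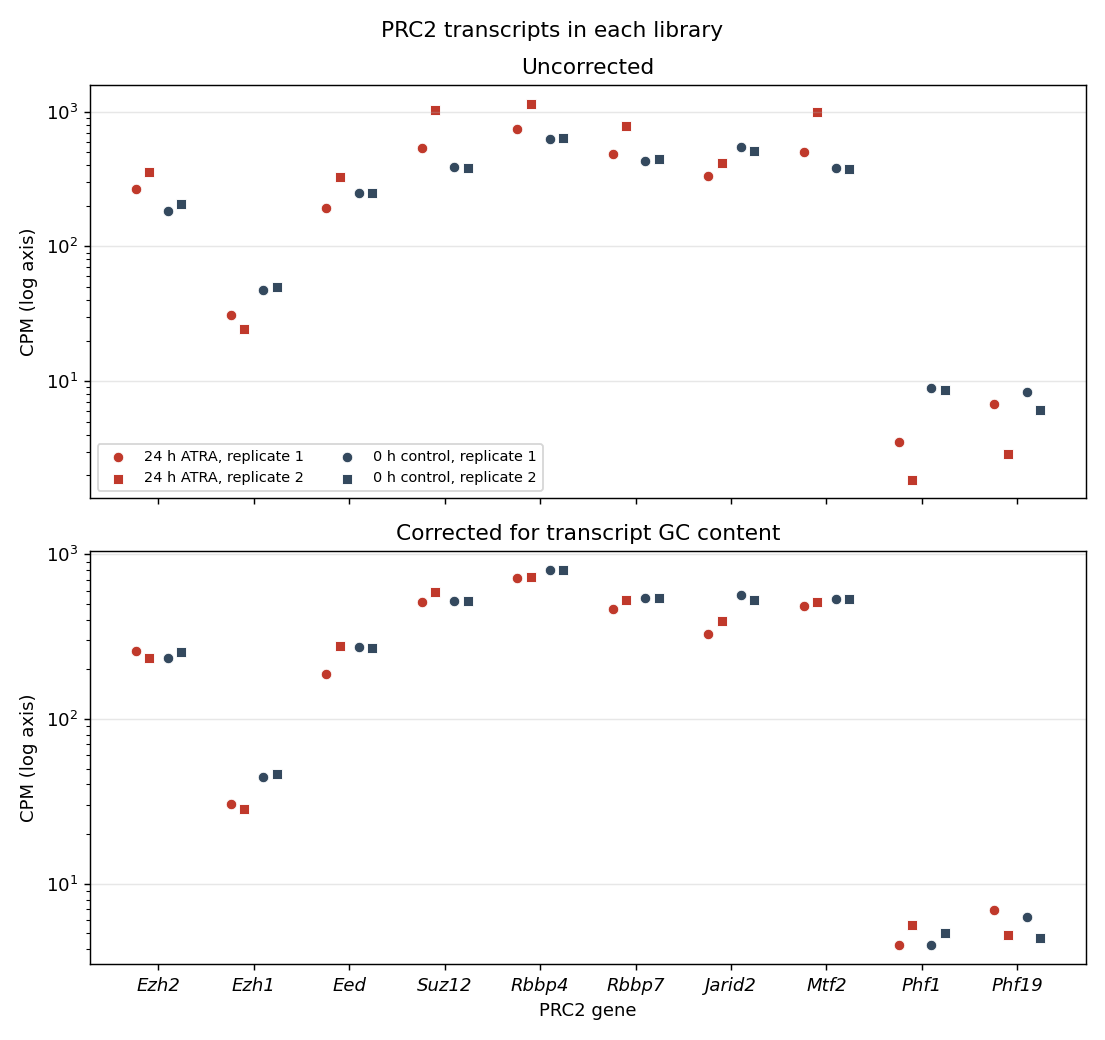
CPM of each PRC2 gene on a log axis, with a point for each of the 2 ATRA (red) and 2 control (dark) libraries, uncorrected above and GC-corrected below. Uncorrected, the ATRA libraries lie farther apart than the controls, with Suz12 at 536 and 1027 CPM and Phf1 at 3.53 and 1.86 CPM.

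Ezh2 encodes the methyltransferase that dominates in dividing cells (chromosome 6, 47530139 to 47595341, minus strand, GRCm38). It was measured at 268 and 356 CPM in the ATRA libraries and at 184 and 205 CPM in the controls. Both ATRA libraries lay above both controls. The log2 fold change was 0.68 ± 0.28 (SE) with an edgeR adjusted p of 0.121, so it was not called. After the GC correction the levels were 258 and 234 CPM with ATRA and 234 and 256 CPM in the controls, and the groups overlapped. The corrected log2 fold change was 0.01 ± 0.10 (edgeR adjusted p = 0.964), with a transcript of 44.4% GC.

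Ezh1, the paralog with weaker methyltransferase activity that is known for its place in non-dividing cells (chromosome 11, 101191115 to 101226463, minus strand), differed in the other direction. Its levels were 30.8 and 24.4 CPM with ATRA and 47.8 and 49.8 CPM in the controls. Both ATRA libraries lay below both controls, and this held after the correction, at 30.4 and 28.5 CPM with ATRA against 44.5 and 46.1 CPM. The uncorrected log2 fold change was −0.82 ± 0.29 (edgeR adjusted p = 0.0955), and the corrected one −0.62 ± 0.13 (edgeR adjusted p = 0.0368), a corrected level 0.65 times that of the controls. Without ATRA replicate 1 or 2 the corrected log2 fold change was −0.66 or −0.56. Without control replicate 1 or 2 it was −0.67 or −0.61. These fits leave 1 library in a group, so only the change is given. With the replicate number as a block the change was −0.62 and the call was lost (edgeR adjusted p = 0.0507).

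Per kilobase of exon, the ratio of Ezh2 to Ezh1 was 9.70 and 16.2 in the ATRA libraries and 4.30 and 4.59 in the controls. Both ATRA ratios exceeded both control ratios. After the GC correction the ratios were 9.44 and 9.17 with ATRA and 5.84 and 6.18 in the controls, or 9.31 ± 0.19 and 6.01 ± 0.24 (SD, n = 2 each), and again did not overlap. The corrected log2 fold change was 0.01 for Ezh2 and −0.62 for Ezh1, so the corrected ratio restates the change of Ezh1. How often the ratio of other gene pairs does not overlap was not counted. The corrected share of Ezh1 in the summed level of both genes was 9.58% and 9.83% with ATRA and 14.6% and 13.9% in the controls. With 2 libraries a group, an exact two-sided permutation test of a single ratio cannot give a p below 0.333, so these ratios carry no test.

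**Figure D2:**
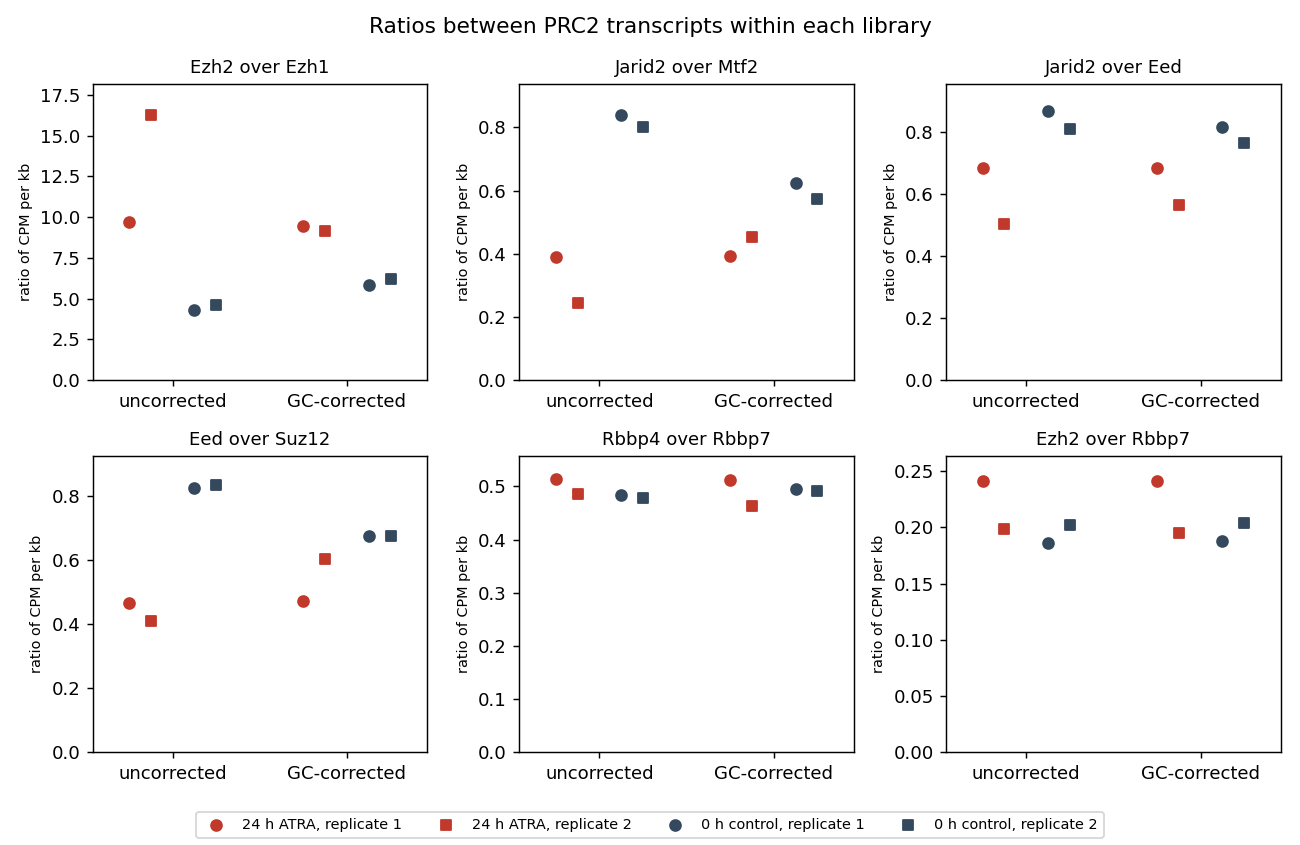
Ratios of the levels of 6 pairs of PRC2 genes, in CPM per kilobase of exon, with a point for each ATRA (red) and control (dark) library, before and after the GC correction, on linear axes from 0. The corrected ratio of Ezh2 to Ezh1 is 9.44 and 9.17 in the ATRA libraries and 5.84 and 6.18 in the controls.

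The promoters of both methyltransferase genes and of Jarid2 are shown because Ezh1 and Jarid2 were the genes that fell after the correction, while Ezh2, the paralog of Ezh1, did not pass. Each window runs from 250 bases before to 50 bases after an annotated start, read on the gene's strand (RefSeq, GRCm38.p6). It is chr6:47594981-47595280 (minus) for Ezh2, chr11:101226414-101226713 (minus) for Ezh1 and chr13:44730524-44730823 (plus) for the first of 2 Jarid2 windows. Capitals mark matches to CCAAT, to the GC box GGGCGG and to E2F words, on either strand.
Ezh2: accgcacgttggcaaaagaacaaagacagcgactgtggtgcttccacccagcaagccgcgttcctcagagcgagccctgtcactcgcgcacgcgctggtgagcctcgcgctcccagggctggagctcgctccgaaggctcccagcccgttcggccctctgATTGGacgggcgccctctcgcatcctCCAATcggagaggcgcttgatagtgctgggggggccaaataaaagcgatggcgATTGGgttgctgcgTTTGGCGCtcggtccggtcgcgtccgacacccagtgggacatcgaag
Ezh1: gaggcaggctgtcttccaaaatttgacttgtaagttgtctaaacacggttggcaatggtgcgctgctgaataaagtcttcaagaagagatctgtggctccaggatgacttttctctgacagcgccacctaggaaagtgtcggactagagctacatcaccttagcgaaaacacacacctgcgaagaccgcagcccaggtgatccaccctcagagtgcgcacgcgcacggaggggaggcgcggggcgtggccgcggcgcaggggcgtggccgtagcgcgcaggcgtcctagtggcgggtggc
Jarid2: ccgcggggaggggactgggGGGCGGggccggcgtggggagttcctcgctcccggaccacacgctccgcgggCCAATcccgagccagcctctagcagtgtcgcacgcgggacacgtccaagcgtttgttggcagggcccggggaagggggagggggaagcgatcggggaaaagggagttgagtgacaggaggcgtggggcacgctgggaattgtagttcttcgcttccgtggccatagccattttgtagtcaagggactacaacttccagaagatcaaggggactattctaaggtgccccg

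All 10 genes had a RefSeq window, and 12 windows were searched on both strands. The E2F words TTTCCCGC, TTTCGCGC, TTTGCCGC and TTTGGCGC, bound by the E2F factors of the cell cycle, were found for Ezh2, Suz12 and Phf19, and in 2.27% of all 32851 windows. The Ezh2 window held 3 CCAAT boxes besides its E2F word, and the Jarid2 window 1 CCAAT box and 1 GC box. None of the words searched was found in the Ezh1 window. CCAAT was found in 8 of the 12 windows and in 37.4% of all windows, and GGGCGG in 8 and in 35.7%. Half-sites of the kind that retinoic acid receptors bind, searched as the word AGGTCA with its variant GGGTCA and the word AGTTCA with its variant GGTTCA, were found for Suz12 and Phf1 and in 43.7% of all windows. GC content ran from 45.7% to 75.7% in the 12 windows, with a median of 52.7% over all windows. A match is a string of letters and not a measured site.

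Suz12, the scaffold subunit (chromosome 11, 79993106 to 80034123, plus strand), stood at 536 and 1027 CPM with ATRA and at 387 and 385 CPM in the controls. The ATRA libraries differed from each other by more than the controls did, and both were higher than both controls. The log2 fold change of 1.02 ± 0.37 was not called (edgeR adjusted p = 0.102). Corrected for GC content, Suz12 had 513 and 588 CPM with ATRA and 523 and 518 CPM in the controls, with overlapping groups. The corrected log2 fold change was 0.08 ± 0.10 (edgeR adjusted p = 0.598). The Suz12 transcript has 41.6% GC, in the decile of genes whose median uncorrected change was 1.03.

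Eed, the reader of the finished mark (chromosome 7, 89954654 to 89980983, minus strand), had 193 and 326 CPM with ATRA and 248 and 249 CPM in the controls. The ATRA libraries lay on either side of the controls. The log2 fold change was 0.06 ± 0.33 uncorrected (edgeR adjusted p = 0.894) and −0.23 ± 0.19 corrected (edgeR adjusted p = 0.402). At corrected levels of 188 and 276 CPM with ATRA against 274 and 271 CPM, 1 ATRA library was still below and 1 above both controls. Without ATRA replicate 1 the corrected change was 0.02, and without ATRA replicate 2 it was −0.52.

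The histone chaperones Rbbp4 (chromosome 4, 129307100 to 129335370, minus strand) and Rbbp7 (chromosome X, 162760402 to 162779092, plus strand) also serve complexes other than PRC2. Rbbp4 was measured at 748 and 1145 CPM with ATRA and at 628 and 637 CPM in the controls. Rbbp7 was measured at 485 and 783 CPM with ATRA and at 432 and 442 CPM in the controls. For each of them both ATRA libraries were the higher ones before correction and the lower ones after it. The corrected levels of Rbbp4 were 717 and 729 CPM with ATRA against 808 and 808 CPM, and those of Rbbp7 were 466 and 524 CPM with ATRA against 542 and 546 CPM. Uncorrected log2 fold changes were 0.58 ± 0.31 for Rbbp4 and 0.54 ± 0.32 for Rbbp7 (edgeR adjusted p = 0.191 and 0.234). Corrected ones were −0.16 ± 0.08 and −0.14 ± 0.10 (edgeR adjusted p = 0.208 and 0.349), and neither gene was called. Without ATRA replicate 2 the corrected log2 fold change of Rbbp7 was −0.22. The ratio of Rbbp4 to Rbbp7 per kilobase was 0.514 and 0.487 in the ATRA libraries and 0.483 and 0.479 in the controls. After the correction it was 0.513 and 0.463 with ATRA and 0.496 and 0.492 in the controls, so the groups overlapped.

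Jarid2, a DNA-binding subunit that recruits PRC2 and modulates its activity (chromosome 13, 44729474 to 44921643, plus strand), had 335 and 416 CPM with ATRA and 545 and 514 CPM in the controls. Both ATRA libraries lay below both controls. The uncorrected log2 fold change was −0.50 ± 0.27 (edgeR adjusted p = 0.196). After correction the levels were 328 and 395 CPM with ATRA and 568 and 526 CPM in the controls, and Jarid2 fell by 0.60 ± 0.12 in log2 fold change (edgeR adjusted p = 0.0370), to 0.66 times the control level. The corrected call was kept with the replicate block (edgeR adjusted p = 0.0322). Without ATRA replicate 1 or 2 the corrected log2 fold change was −0.46 or −0.73. Without control replicate 1 or 2 it was −0.55 or −0.66. Fits with 1 library in a group are given by their change only. At 49.1% GC, Jarid2 lies in the decile of genes whose median uncorrected change was 0.12.

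Mtf2, the Polycomb-like protein that is abundant in stem cells (chromosome 5, 108065674 to 108109004, plus strand), was counted at 504 and 997 CPM with ATRA and at 381 and 377 CPM in the controls. Both ATRA libraries were above both controls, and ATRA replicate 2 was the highest. The log2 fold change was 0.99 ± 0.38 (edgeR adjusted p = 0.111). Its transcript is the poorest in GC of the 10, at 38.2%. After correction the groups stood in the opposite order, at 487 and 512 CPM with ATRA and 534 and 539 CPM in the controls. The corrected log2 fold change of Mtf2 was −0.10 ± 0.09 (edgeR adjusted p = 0.413).

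Phf1, another Polycomb-like protein (chromosome 17, 26933052 to 26937908, plus strand), had the smallest uncorrected p of the 10 and few reads, with 50 and 18 counts in the ATRA libraries and 286 and 194 in the controls. In CPM these are 3.53 and 1.86 with ATRA and 8.96 and 8.64 in the controls, which did not overlap. The log2 fold change was −1.67 ± 0.42, and its edgeR adjusted p of 0.0691 missed the threshold. It passed with the replicate block (edgeR adjusted p = 0.00806). The uncorrected log2 fold change was −2.26 or −1.30 without ATRA replicate 1 or 2. Without control replicate 1 or 2 it was −1.66 or −1.71. Phf1 is also the richest of the 10 in GC, at 60.0%, in the decile with a median uncorrected change of −1.72. Corrected levels were 4.22 and 5.62 CPM with ATRA and 4.21 and 5.03 CPM in the controls, and the corrected log2 fold change was 0.04 ± 0.27 (edgeR adjusted p = 0.923).

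Phf19, the third Polycomb-like gene (chromosome 2, 34893757 to 34914026, minus strand), had 96 and 28 counts with ATRA and 266 and 137 in the controls. Its levels were 6.79 and 2.89 CPM with ATRA and 8.34 and 6.10 CPM in the controls, and the groups overlapped. The log2 fold change was −0.55 ± 0.48 uncorrected and 0.13 ± 0.29 corrected (edgeR adjusted p = 0.392 and 0.764).

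**Figure D3:**
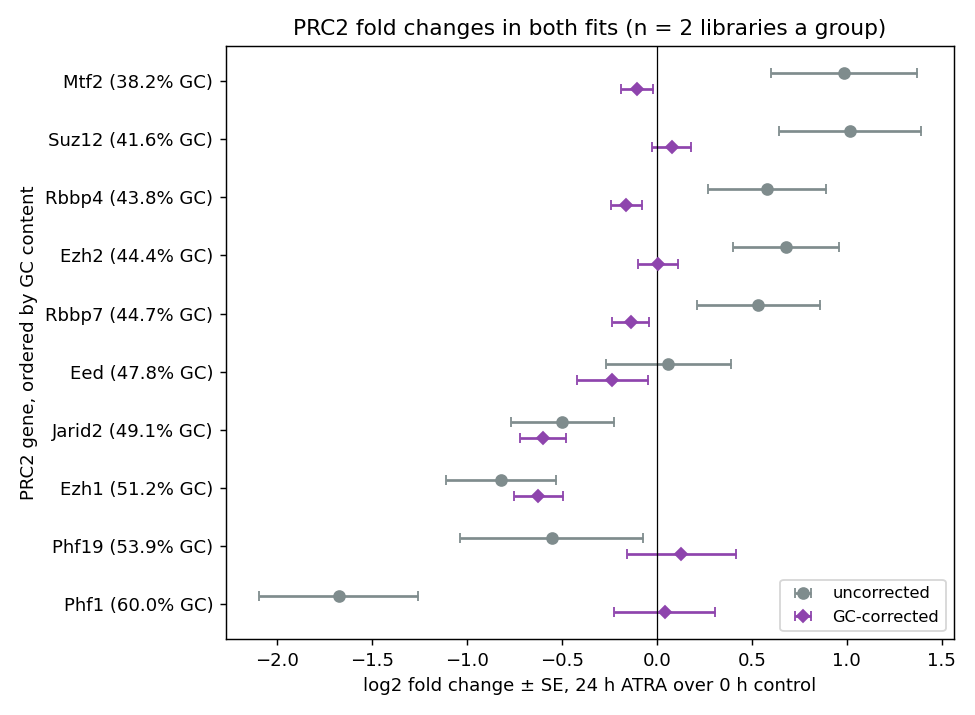
Log2 fold change of each PRC2 gene, 24 h ATRA over 0 h control, with its standard error, before and after the GC correction. Ezh1 and Jarid2 lie below 0 in both, at −0.82 and −0.50 before and −0.62 and −0.60 after, while Suz12, Mtf2 and Phf1 move close to 0.

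Across the 10 genes the uncorrected fold changes were ordered by GC content, with Spearman's rho of −0.96 and Pearson's r of −0.96. After the correction rho was −0.04. These are descriptions across 10 genes that share the same 4 libraries, and genes are not independent replicates. The genes departed from the median of their own GC decile by different amounts. Phf1 at −1.67 and Phf19 at −0.55 lay at the medians of their deciles, −1.72 and −0.55, and Suz12 and Mtf2 at 1.02 and 0.99 lay close to 1.03. Ezh1 at −0.82 was below its decile's median of −0.21, and Jarid2 at −0.50 below 0.12. The lower quartiles of those deciles were −0.66 and −0.30. Eed at 0.06, Rbbp4 at 0.58 and Rbbp7 at 0.54 were also below their medians of 0.36, 0.82 and 0.60. Ezh2 at 0.68 was above 0.60. The log2 ratio of ATRA replicate 2 to replicate 1 was 0.98 for Mtf2, 0.94 for Suz12 and 0.75 for Eed, and −0.93 for Phf1 and −1.23 for Phf19. It was above 0 for the 7 genes under 50% GC and below 0 for the other 3, without following GC content gene by gene. In the control pair the ratio stayed between −0.45 for Phf19 and 0.16 for Ezh2.

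**Figure D4:**
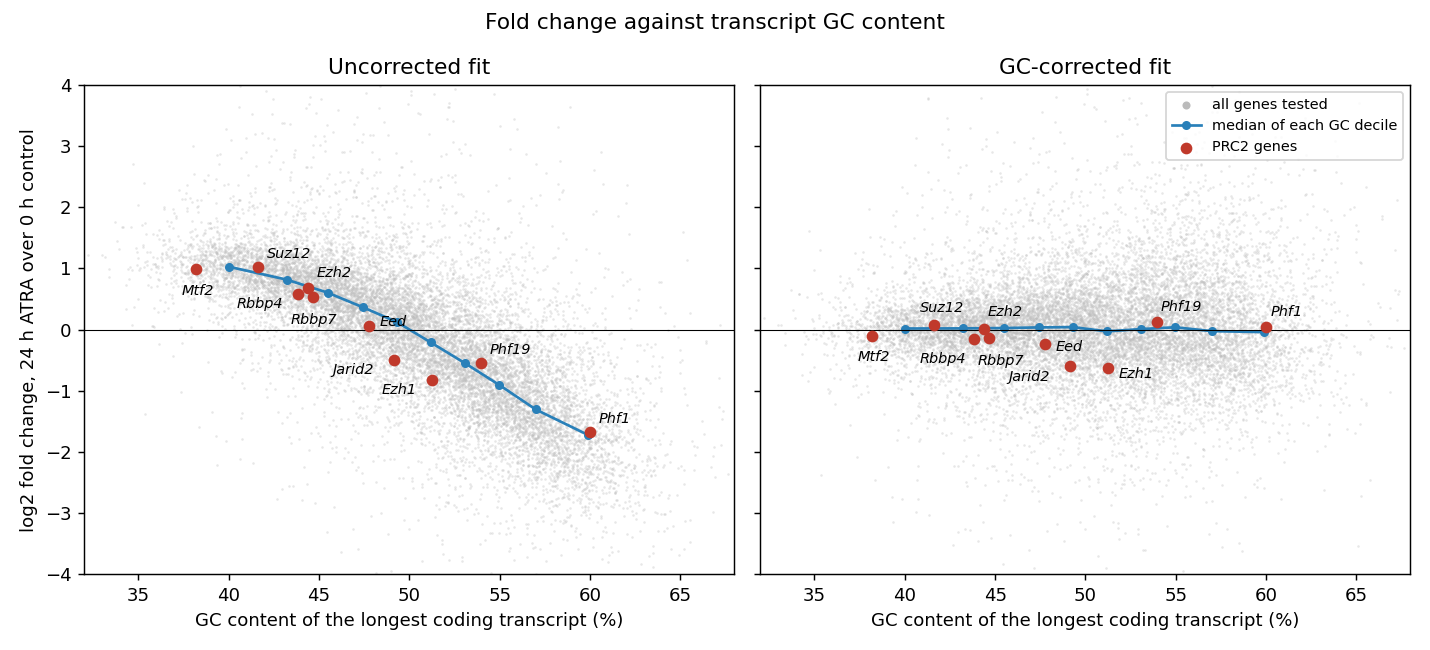
Log2 fold change, 24 h ATRA over 0 h control, against the GC content of the longest coding transcript, with all genes tested in grey, the median of each GC decile as a line, and the PRC2 genes in red. The axes leave out 99 genes in the uncorrected panel and 95 in the corrected panel. The line runs from 1.03 to −1.72 before the correction and is flat after it. Of the PRC2 genes Ezh1 and Jarid2 then lie farthest below the line, and Eed, Rbbp4, Rbbp7 and Mtf2 less far below.

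Set per kilobase of exon, Rbbp7 was the most abundant of the 10 genes, at 218 ± 72.6 CPM per kilobase with ATRA and 150.3 ± 2.54 in the controls (SD, n = 2 each). Suz12 was next at 158 ± 70.2 with ATRA and 78.1 ± 0.285 in the controls, on the same scale. Mtf2 had 132 ± 61.2 with ATRA and 66.5 ± 0.567 in the controls, Rbbp4 108 ± 32.1 and 72.3 ± 0.739, and Eed 67.8 ± 24.5 and 64.9 ± 0.331. Lower levels were those of Ezh2, at 46.8 ± 9.31 with ATRA and 29.2 ± 2.22 in the controls, and of Jarid2, at 38.7 ± 5.92 and 54.5 ± 2.31. Ezh1 stood at 3.71 ± 0.606 with ATRA and 6.56 ± 0.197 in the controls. Phf19 had 0.960 ± 0.547 with ATRA and 1.43 ± 0.314 in the controls, and Phf1 had 0.773 ± 0.340 and 2.53 ± 0.0656. On this uncorrected scale Ezh2 and Jarid2 stood in opposite orders in the 2 groups, and so did Mtf2 and Rbbp4, and Phf19 and Phf1. After the GC correction these reversals were gone by this length, but that of Ezh2 and Jarid2 was not by the length of the longest coding transcript. By mean corrected level per kilobase of exon both groups had the order Rbbp7, Suz12, Mtf2, Rbbp4, Eed, Jarid2, Ezh2, Ezh1, Phf1 and Phf19. Corrected levels of Jarid2 were 37.2 ± 4.89 CPM per kilobase with ATRA and 56.3 ± 3.06 in the controls, and those of Ezh2 36.8 ± 2.46 with ATRA and 36.6 ± 2.36 in the controls (SD, n = 2 each).

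Uncorrected, no neighbours in the order overlapped in the controls. With ATRA, the neighbours from Rbbp7 through Suz12 and Mtf2 to Rbbp4 overlapped, as did Eed with Ezh2, Ezh2 with Jarid2, and Phf19 with Phf1, although the order was the same within each ATRA library. Corrected, Jarid2 and Ezh2 overlapped with ATRA, and Phf1 and Phf19 overlapped in both groups. The length of the longest coding transcript gave another order in the middle. Suz12 in the controls was at 88.3 CPM per kilobase uncorrected against 143 for Rbbp4, and Mtf2 was below Rbbp4 in both groups. Corrected, the mean by this length was 88.3 for Ezh2 and 60.3 for Jarid2 with ATRA. In the controls it was 87.8 for Ezh2 and 91.2 for Jarid2, whose libraries overlapped there. By corrected mean, Suz12 was above Mtf2 and Eed with ATRA and below both in the controls. In both groups, by both lengths and with or without the correction, Rbbp7 was the highest and Ezh1, Phf1 and Phf19 were the 3 lowest.

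Among the Polycomb-like genes, Mtf2 made up 97.4% and 99.4% of their summed level per kilobase with ATRA and 94.1% and 94.7% in the controls. After the correction these shares were 97.1% and 97.2% with ATRA and 97.5% and 97.5% in the controls, so the direction was the opposite one. The ratio of Jarid2 to Mtf2, one member of each form of the complex, was 0.390 and 0.245 with ATRA and 0.839 and 0.800 in the controls. It remained lower with ATRA after the correction, at 0.395 and 0.453 against 0.623 and 0.573. The ratio of Eed to Suz12 was 0.465 and 0.410 with ATRA and 0.827 and 0.837 in the controls, and 0.474 and 0.606 against 0.677 and 0.675 corrected. No ratio was among the planned results, those above included, and further pairs were chosen after their values were seen. The ratio of Jarid2 to Eed was 0.683 and 0.504 with ATRA and 0.868 and 0.811 in the controls, and 0.686 and 0.565 against 0.816 and 0.765 corrected. The ratio of Ezh2 to Rbbp7 overlapped between the groups, at 0.241 and 0.198 with ATRA and 0.186 and 0.202 in the controls, and also corrected, at 0.241 and 0.195 against 0.188 and 0.204. The ratio of Suz12 to Mtf2 was 1.23 and 1.19 with ATRA and 1.17 and 1.18 in the controls, and 1.21 and 1.32 against 1.13 and 1.11 corrected, without overlap on either scale. Those of Ezh2 to Suz12 and of Jarid2 to Ezh1 overlapped on both scales. Corrected, Jarid2 to Ezh1 was 8.26 and 10.6 with ATRA and 9.78 and 8.73 in the controls. The share of all gene pairs without overlap was not counted, and of single genes 81.4% uncorrected and 70.3% corrected did not overlap.

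Several PRC2 genes share exon bases with a gene on the opposite strand, and the strand setting of the counting was not given in the sources used here. The largest share was that of Phf1, with 1370 of 3486 exon bases also in exons of Cuta. For Rbbp4, 782 of 8744 bases are shared with Sync and 796 with a non-coding gene, and for Mtf2 395 of 5698 with Tmed5. Ezh1, Jarid2 and Phf19 share none. Processed pseudogenes resemble Rbbp7 (97.1% identity over 942 bases), Rbbp4 (90.9% over 1280 bases) and Mtf2 (91.8% over 329 bases), so their counts are uncertain to the extent that reads were split.

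The other genes around the complex were counted in lists. Of 4 further PRC2 partners, 0 were called in either fit, with 4 of 4 under an unadjusted p of 0.05 uncorrected (41.7% of all genes) and 0 of 4 corrected (38.2% of all genes). Epop, a stem cell partner of PRC2 listed as E130012A19Rik, had 43.2 and 23.2 CPM with ATRA and 194 and 159 CPM in the controls, and Aebp2 had 165 and 256 CPM with ATRA against 121 and 123 CPM. Their log2 fold changes were −2.41 and 0.78 uncorrected (edgeR adjusted p = 0.0548 and 0.114) and −0.29 and −0.16 corrected (edgeR adjusted p = 0.284 and 0.310). Of 3 genes of the demethylase family that acts on the PRC2 mark, 0 were called uncorrected, and Kdm6b rose after the correction. Its levels were 39.4 and 22.1 CPM with ATRA against 50.4 and 35.9 CPM, and the log2 fold change of −0.49 uncorrected became 1.29 corrected (edgeR adjusted p = 0.352 and 0.0239), so its direction depends on the correction. Neither acetyltransferase of the same lysine, Crebbp nor Ep300, was called, with corrected log2 fold changes of 0.10 and 0.41 (edgeR adjusted p = 0.663 and 0.151).

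Of 18 genes of other complexes that hold Rbbp4 or Rbbp7, 0 were called uncorrected. After the correction 2 rose (Chd3 by 1.16 and Mbd2 by 2.35 on the log2 scale) and Gatad2a fell by 0.95, where 8.56% of all genes rose and 7.7% fell, with a list median of 0.05 against 0.01 for all genes. Uncorrected, the log2 fold change of Chd3 was −0.03, at 62.5 and 31.2 CPM with ATRA and 50.5 and 45.3 CPM in the controls, so that its rise rests on the correction. Mbd2 was at 0.83 and Gatad2a at −1.68 uncorrected. Of 14 other SET domain methyltransferases and 10 DNA replication genes, 0 were called in either fit. Their corrected medians were −0.01 and −0.25, and 3 of each list had a corrected unadjusted p under 0.05, where 38.2% of all genes did. Uncorrected, 5 and 4 did, where 41.7% of all genes did. Of 20 developmental regulators known to carry the PRC2 mark in stem cells, 11 had enough counts to be tested and 9 did not. Of the 11, 3 (Gata6, Isl1 and Foxa2) passed the count filter through the ATRA libraries alone, so the filter favours genes higher with ATRA and the counts over the list give no direction for it. Uncorrected, Sox1 and Msx1 rose and 0 fell, where 0.723% of all genes rose. After the correction 6 rose, Gata6 and Gata4 among them, and 0 fell, where 8.56% of all genes rose. Both of these also stand in the endoderm list. The log2 fold change of Gata4 was 0.50 uncorrected (edgeR adjusted p = 0.453) and 1.83 corrected, so its rise rests on the correction. Sox1, a transcription factor of the early neural plate, had 23.8 and 30.7 CPM with ATRA and 1.60 and 1.56 CPM in the controls, and its log2 fold change of 4.10 ± 0.37 passed (edgeR adjusted p = 0.0196). Msx1, a homeobox factor of the neural crest and limb, had 26.6 and 20.1 CPM with ATRA and 2.44 and 2.27 CPM in the controls, and its log2 fold change of 3.30 ± 0.36 passed (edgeR adjusted p = 0.0329). The mark itself was not measured.

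The genes whose levels across the 4 libraries were most like those of Phf1 were Aspg, Rasd2 and Chga, out of 2647 genes of like abundance. Their distances from Phf1, in centred log2 CPM, were 0.038, 0.048 and 0.057. Their uncorrected log2 fold changes were −1.67, −1.64 and −1.62, and their transcripts had 58.1%, 55.6% and 58.4% GC. The corrected values were −0.21, −0.57 and −0.11.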

How the data were processed

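RNA was sequenced from 2 ATRA and 2 control libraries, made from Trizol extracts by the Illumina procedure, per the labels' protocols. The deposited tables hold whole-number read counts for each gene symbol, without normalization. TopHat2 2.0.7, Cufflinks 2.0.2, HTSeq 0.6.0, Cuffdiff 2.0.2 and the build mm10 are listed in the submitters' processing notes. The annotation and strand setting were not given in the sources used here. Reads that HTSeq assigned to no feature, 64.7% and 66.2% of all in the ATRA libraries and 63.4% and 63.9% in the controls, entered neither library sizes nor tests. Where in the genome these reads lie was not examined.

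Symbols were matched to GENCODE M21 (GRCm38, which mm10 names): 21777 directly, 1278 by an older symbol and 365 not. Counts were fitted with edgeR 4.0.16 (R 4.3.3): default expression filter, TMM, robust quasi-likelihood F test without covariates, Benjamini-Hochberg adjustment over all 14256 genes, threshold 0.05. SE values divide the fold change by the root of F. The GC correction took, in each library, a robust natural spline (5 degrees of freedom, MASS 7.3.60.0.1) of log2 CPM deviation (prior count 2) on the GC content of the longest coding transcript, over genes with a mean log2 CPM above 1, as offsets. Alternatives were DESeq2 1.42.0, its size factors, no filter, a replicate block, leaving out each library and, added after seeing the data, edgeR's older quasi-likelihood method. The fits were also run on simulated counts, with and without the GC trend that the corrected fit had estimated from these libraries. Their spread came from that fit too, so the simulation is no independent test of the correction. A count of 0 allows up to 3 counts, or 0.0968 to 0.271 CPM, as counting error only.

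Members, gene lists and tests were chosen with earlier results of these data known. All 10 members are named. List genes are named where called in either fit, at most 3 a list by p, or in lists of 5 or fewer. Others are named where a sum, a count or the filter rests on them. The 3 genes most like the member with the smallest p are named.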

Additional observations from a re-analysis of the deposited data

How the results depend on the processing

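Without correction 161 genes were called, 0 of them PRC2 genes. All genes called and PRC2 genes among them were 603 and 0 with DESeq2's size factors, 4350 and 3 with the DESeq2 test, 2317 and 2 after the GC correction, 4401 and 1 with the replicate block, 2635 and 1 with the replicate block and the GC correction, and 86 and 0 with the older quasi-likelihood method. Leaving out a library, with and without the correction, gave 29 to 10289 genes, of which 0 to 10 were PRC2 genes, on the assumption that the library left alone varies as the other group does. Without ATRA replicate 1 all 10 were called uncorrected, among 10289 genes, and without ATRA replicate 2 there were 8 among 7302. The median of the PRC2 genes was 0.30, −0.12 after the GC correction, −0.12 with the block and correction, and −0.15 to 0.60 with a library left out. The correction turned the sign of 6 genes, to −0.23 for Eed, −0.10 for Mtf2, −0.16 for Rbbp4, −0.14 for Rbbp7, 0.042 for Phf1 and 0.13 for Phf19. With the replicate block as well these were −0.26, −0.10, −0.16, −0.14, 0.071 and 0.10. Eed was at −0.0029 with no count filter. Over both fits with a library left out, log2 fold changes ran from −0.063 to 0.86 for Ezh2, −0.52 to 0.37 for Eed, −0.015 to 1.40 for Suz12, −0.13 to 1.38 for Mtf2, −2.26 to 0.31 for Phf1, −1.36 to 0.33 for Phf19, −0.17 to 0.84 for Rbbp4 and −0.22 to 0.83 for Rbbp7. Ezh1 (−1.01 to −0.56) and Jarid2 (−0.73 to −0.36) stayed negative under every setting run. The cause of these shifts was not tested beyond the correction itself. Across the genes tested, the log2 difference of replicate 1 from replicate 2 had a correlation of 0.217 between the 2 groups. With 2 libraries a group this is too little to take the numbers as a pairing. Depth is lowest for Phf1 and Phf19, with 18 and 28 counts in ATRA replicate 2.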
